A study of Homo sapiens with 8 samples.

Results

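The proteins of the cytosolic ribosome are encoded by genes named RPL for the large subunit and RPS for the small subunit. A gene was taken where a probe set of the array carried a single gene symbol and that symbol was RPL or RPS with a number and at most an ending of A, L or X, or was RPLP0, RPLP1, RPLP2 or RPSA. RPS27L, the S6 kinases and pseudogenes were left out. The rule gave 55 genes of the 19775 named on the array, 35 of the large subunit and 20 of the small subunit. Each gene was read by the brightest of its probe sets, and 114 probe sets carried one of these symbols alone. A further 64 probe sets listed such a symbol beside others and were not used, so that RPL10 and RPL26, for example, have no value here.

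Expression was measured in side population (SP) cells and main population (MP) cells of 4 human cell lines grown from lung tumours, which were A549, H460, H1650 and H1975. SP cells pump out Hoechst dye and were sorted by that property, whereas MP cells retain the dye. A549 and H460 carry a mutated K-Ras and H1650 and H1975 a mutated EGFR. There was 1 SP array and 1 MP array per line, 8 arrays in all, with no other treatment, so a line is the replicate when SP is set against MP. The values are log2 signals, and a difference of 1 is a doubling. The signal of ABCG2, the dye transporter, was higher on the SP array than on the MP array by 1.08 in A549 and 1.17 in H1975 and by 0.36 in H460. For H1650 the SP minus MP difference was -0.70, so the array labelled SP was the lower one, and its directions are those of the deposited labels. The keratin genes KRT8 and KRT18, which mark epithelial cells, had log2 signals of 12.9 to 14.3 on every array, while the epithelial genes EPCAM and CDH1 were at or below 5.97 on both H460 arrays. Of the genes that mark other cells, PTPRC of leukocytes did not exceed 4.72 on any array and CD3E of T cells did not exceed 6.43. CD14 of monocytes lay between 7.39 and 9.42, and the collagen gene COL1A1 was at 12.9 or above on both arrays of H1975 and at 8.85 to 9.67 on the arrays of the other lines. Of the other genes listed for fibroblasts, COL1A2 was highest in H1975 too (9.21 in SP and 9.10 in MP). COL3A1 went the other way, lowest in H1975 (3.93 and 4.71) and highest in H460 (10.45 and 10.60). PDGFRB was at 6.68 and 6.87 in H1975 and at 6.28 and 6.24 in H460. The part of other cells in the results was not tested.

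A ribosome joins a small subunit, which reads the messenger RNA, to a large subunit, which forms the peptide bond. Each carries 1 copy of nearly all its proteins, and the messenger RNAs for these proteins are among the most abundant of a dividing cell. Many of them begin with a C and a run of pyrimidines, the terminal oligopyrimidine (TOP) start, through which growth signals by way of mTOR and LARP1 adjust their translation. Surplus ribosomal proteins are degraded, and free RPL5 and RPL11 bind MDM2, which links a disturbed ribosome assembly to p53. Some of the genes have a paralogue, a second gene for a similar protein, that is used in particular tissues or conditions.

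The start of the transcript is a feature that the choice of genes did not use. RefSeq promoter windows (build GRCh38.p14) of 250 bases before and 50 bases after the start were matched for 47 of the 55 genes by symbol. A C at the annotated start followed by at least 4 bases that were C or T stood in 33 of the 47 windows (70.2%), against 1429 of 35116 windows of all genes (4.07%). With the run allowed to begin within 5 bases of the start, the counts were 40 of 47 (85.1%) against 21.1% of all windows. The letters CCGGAAG on either strand, which lie in the site of ETS factors, were in 36.2% of the windows of these genes and in 10.3% of all windows, AAGATGG on either strand in 10.6% and 5.84%, and TATAAA on either strand in 8.51% and 11.5%. These letters can overlap the run, and their overlap was not counted. Below are the 30 bases before and the 20 bases from the annotated start of selected genes. RPL36, RPS15, RPS28, RPL35A and RPL3 differed most between the lines among the ribosomal protein genes with a mean log2 signal of at least 13. The others are RPL22 and RPS27 with their paralogues, and RPL7L1, the paralogue of RPL7. Capitals mark the unbroken run of C and T that begins at the annotated start. All are written 5′ to 3′ on the strand of the gene.
RPL36, chr19:5690265-5690314, plus strand: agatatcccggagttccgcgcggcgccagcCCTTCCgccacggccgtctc
RPS15, chr19:1438366-1438415, plus strand: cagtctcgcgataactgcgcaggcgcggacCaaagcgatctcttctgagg
RPS28, chr19:8321466-8321515, plus strand: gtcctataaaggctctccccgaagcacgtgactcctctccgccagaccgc
RPL35A, chr3:197950160-197950209, plus strand: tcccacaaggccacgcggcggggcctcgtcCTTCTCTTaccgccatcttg
RPL3, chr22:39319604-39319653, minus strand: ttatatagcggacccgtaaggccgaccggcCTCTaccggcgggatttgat
RPL22, chr1:6199576-6199625, minus strand: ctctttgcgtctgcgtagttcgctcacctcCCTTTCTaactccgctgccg
RPL22L1, chr3:170870176-170870225, minus strand: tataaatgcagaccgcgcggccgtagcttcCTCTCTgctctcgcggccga
RPS27, chr1:153990732-153990781, plus strand: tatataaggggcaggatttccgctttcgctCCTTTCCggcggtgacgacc
RPS27L, chr15:63157458-63157507, minus strand: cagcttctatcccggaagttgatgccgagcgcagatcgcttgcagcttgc
RPL7L1, chr6:42879586-42879635, plus strand: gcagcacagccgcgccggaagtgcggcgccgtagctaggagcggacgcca

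RPL36, RPL35A, RPL22 and RPS27 thus met the rule for the start, whereas RPS15, RPS28 and RPL3 did not at the annotated base. Of the paralogues, RPL22L1 met it and RPS27L and RPL7L1 did not. The annotated base is 1 of several that a gene may use, and the arrays do not show which start was used.

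The genes were tested with limma, a linear model fitted across all genes at once, on the 12312 genes whose mean log2 signal reached 6.00, the median over the probe sets. A gene is called where its p adjusted by Benjamini-Hochberg over all 12312 genes was under 0.05. Of the 55 genes, 54 passed the filter. RPL3L, a paralogue of RPL3 used in muscle, did not, with log2 signals of 1.08 to 4.45. In 49 genes the mean log2 signal was at or above 13, with a range over genes of 13.48 for RPL14 to 14.42 for RPS23. Another 375 genes outside the list were as bright and serve below as a comparison. The other 5 tested genes, RPL10L, RPL27A, RPL36A, RPL39L and RPLP2, were read only by dim probe sets with means of 6.2 to 10.18. Over the 8 arrays the 49 bright genes moved together, with a median correlation between pairs of genes of 0.80 (middle 50% of pairs, 0.61 to 0.91), and of 0.57 after the median of the other bright genes was subtracted from each array. These are descriptions across pairs of genes that share the same arrays.

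**Figure D1:**
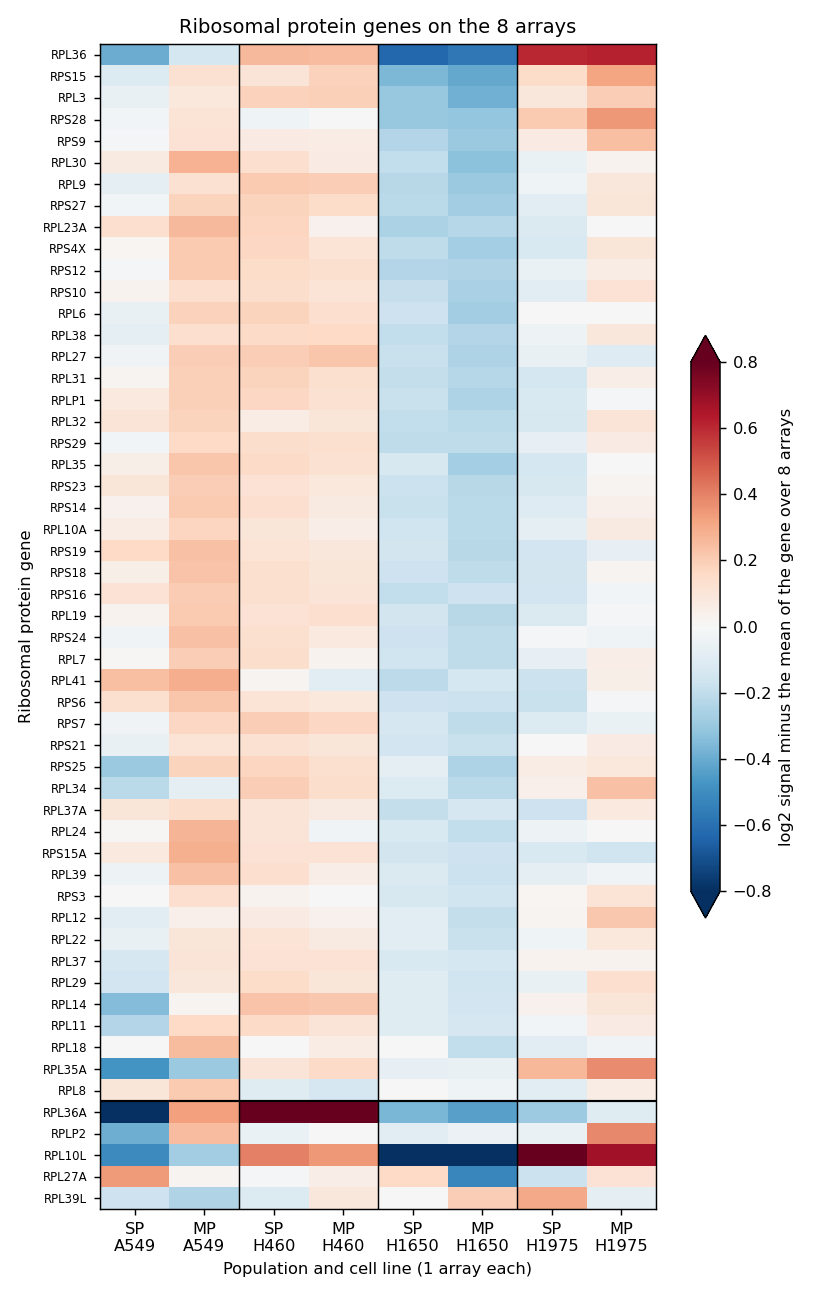
Log2 signal of the 54 tested ribosomal protein genes minus the mean of the gene over the 8 arrays, with 1 column per array and SP left of MP in each line. The 49 bright genes are above the black line, sorted by H1650 against the other 3 lines, and the 5 dim genes are below it; the colour scale ends at -0.8 and 0.8, and RPL36A and RPL10L pass it. The H1650 columns are blue for most bright genes, and RPL36 has the strongest colours of the bright genes.

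No ribosomal protein gene was called between SP and MP over the 4 lines (0 of 54), and limma called 0 of all 12312 genes (0%). At an unadjusted p under 0.05 there were also 0 of the 54 genes, against 375 of 12312 genes (3.05%) and 0.533% of the other bright genes. The direction of the ratio instead went by line. The median SP over MP log2 ratio of the 54 genes was -0.18 in A549 and -0.12 in H1975, while it was 0.032 in H460 and 0.049 in H1650. For all genes tested the A549 median was 0.0039, and those of H460, H1650 and H1975 were -0.029, -0.0072 and -0.036. Both subunits had the same pattern, with medians in A549 of -0.18 for 29 bright genes of the large subunit and -0.18 for 20 of the small subunit, and in H1975 of -0.12 and -0.14.

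Of the 49 bright genes, 49 had a ratio below 0 in A549 (-0.48 to -0.04) and 46 in H1975 (-0.24 to 0.04). In H460, 40 had a ratio above 0 (-0.08 to 0.14), and in H1650 42 did (-0.07 to 0.20). The mean over the 4 lines was below 0 in 49 of 49, between -0.11 and -0.02, as it was in 80% of the other 375 bright genes. In A549 those other bright genes had a median ratio of -0.18, and 92% of them were below 0. Their medians were 0.018 in H460, 0.054 in H1650 and -0.061 in H1975. The shares of them below 0 were 36.3% in H460, 26.9% in H1650 and 67.7% in H1975. The 3' control probe set of GAPDH had ratios of -0.21, -0.0054, 0.066 and -0.10 in A549, H460, H1650 and H1975. That of ACTB had -0.13, 0.038, 0.042 and -0.046 in the same order of lines. The ratio thus moved with that of bright genes in general, and the part of array scaling in it was not tested beyond the settings that follow. With each array centred on the other bright genes, a setting chosen after seeing the data, the ribosomal protein genes had medians of 0.012 for A549, 0.0015 for H460, -0.00295 for H1650 and -0.044 for H1975, so the sign in A549 and H1650 turned. With quantile normalization they were -0.013, -0.0036, -0.0037 and -0.015, all below 0, and with the same median on each array, which removes the SP minus MP differences of the array medians of 0.16 in A549 and -0.17 in H1975, they were -0.34 in A549 and 0.050 in H1975.

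**Figure D2:**
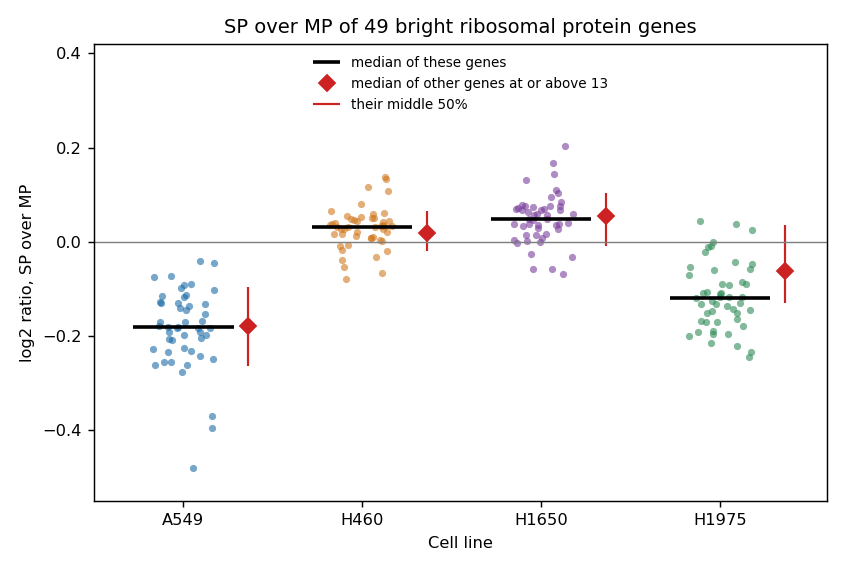
Log2 ratio of the SP over the MP array in each line for the 49 bright ribosomal protein genes (points), with their median (black bar) and the median and middle 50% of the other 375 bright genes (red diamond and line). All 49 points lie below 0 in A549, and the black bar lies within the red line in each of the 4 lines.

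The lowest ratios among the bright genes were those of RPS25, RPL11 and RPL14 in A549. RPS25 is a small subunit protein used in initiation on some viral RNAs. Its log2 signals were 13.63, 14.11, 13.86 and 13.99 in SP of A549, H460, H1650 and H1975, and 14.11, 14.06, 13.69 and 14.02 in MP of the same lines. SP was thus the lower by 0.48 in A549 and the higher by 0.17 in H1650, with a change over the lines of -0.072 (SE 0.10, limma adjusted p = 0.95). RPL11, a partner of MDM2, had log2 signals of 13.75, 14.14, 13.89 and 13.97 in SP and 14.15, 14.09, 13.86 and 14.06 in MP, a change of -0.10 (SE 0.084, limma adjusted p = 0.94). For RPL14, of the large subunit, the signals were 13.13, 13.71, 13.39 and 13.52 in SP and 13.50, 13.69, 13.33 and 13.57 in MP, and the change was -0.088 (SE 0.083, limma adjusted p = 0.94). In all 3 genes the SP array of A549 was the lowest of the 8, and SP and MP overlapped over the lines. RPS15 had the lowest mean ratio of the bright genes, -0.11, with ratios of -0.23 and -0.080 in A549 and H460 and of 0.049 and -0.17 in H1650 and H1975. The mean ratios nearest to 0 among the bright genes were those of RPS19 (-0.018), RPL30 (-0.024) and RPL24 (-0.025). The dim genes spread more widely, with mean ratios of 0.16 for RPL27A, -0.29 for RPLP2, which forms the stalk of the large subunit with RPLP1, and -0.31 for RPL36A, none of them called.

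Whether the effect of the population differed in 1 line from the other 3 was tested on the 4 log2 ratios, with the spread of the single line taken as that of the others. The test called 0 of the 54 genes in each line. Over all genes it called 0% in A549 and in H460, 0.333% in H1650 and 0.0406% in H1975. At an unadjusted p under 0.05 the ribosomal protein genes numbered 9 of 54 in A549 (16.7%), against 4.55% of all genes and 19.2% of the other bright genes. They numbered 0 of 54 in H460 (2.17% of all genes), in H1650 (12.1%) and in H1975 (4.53%). The shares of the other bright genes in these lines were 1.07%, 2.4% and 2.13%. The 9 genes of A549 were RPS25, RPL11, RPL14, RPL24, RPL27, RPL37, RPL39, RPL6 and RPS24, all lower in A549, and the smallest adjusted p was 0.92, that of RPS25. The control probe sets of ribosomal RNA did not move as 1 group in A549. Their SP over MP ratios there were -0.18, 0.39 and 0.62 for the 5', middle and 3' probe sets of the small subunit RNA. Those of the large subunit RNA were -0.58, -0.46 and -2.57. In H460 and H1650 all but the 3' probe set of the large subunit RNA were above 0. In H1975 all but its middle probe set were below 0. These are the sides of the medians of the ribosomal protein genes in those lines.

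Between lines, in contrast, most of the ribosomal protein genes were called. In the test of any difference between the 4 lines, limma called 34 of 54 genes (63%), while it called 76.2% of all genes and 73.1% of the other bright genes. The 2 arrays of a line are sorted populations of that line, so these p-values measure the spread between sorted populations and not between cultures. The range of the line means over the 4 lines had a median of 0.34 on the log2 scale in the bright genes, with the narrowest in RPS3 (0.21) and the widest in RPL36 (1.21). Without H1650 the count was 9 genes, without H460 it was 13, and with a variance model that has no trend in signal it was 6.

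H1650 had the lowest line mean in 46 of the 49 bright genes. Its line mean was below the mean of the other 3 lines in all 49, and in 70.4% of the other bright genes. Both its arrays lay below the other 6 arrays in 34 of the 49, and in 35 of all 54 tested (64.8%), against 17% of all genes and 27.5% of the other bright genes. Against the mean of the other 3 lines, limma called 37 of 54 genes lower in H1650 and 0 higher, where it called 25.8% of all genes lower and 25.1% higher. The 37 genes are 68.5% of the list, and 36.8% of the other bright genes were called lower and 9.6% higher. The 37 genes comprised 19 of 20 small subunit genes and 17 of 29 bright large subunit genes, with RPL10L as the dim member. The median differences of the bright genes were close, at -0.25 for the small subunit and -0.24 for the large subunit. The median difference over the 54 genes was -0.24, beside -0.16 over the other bright genes and -0.0071 over all genes. With each array centred on the other bright genes the median was -0.12 and 27 genes were called, with quantile normalization -0.019 and 8, and with the same median on each array -0.30 and 14. Without H460 11 genes were called in H1650, and without a trend in the variance model 6. The 3' minus 5' difference of the ACTB control probe sets was 0.23 (SP) and 0.26 (MP) in H1650. On the other arrays it was 0.36 to 0.65. That of GAPDH was -0.0609 and -0.0845 in H1650, within the range of the other arrays (-0.18 to -0.030). The part of RNA quality in the H1650 differences was not tested.

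In the other 3 lines fewer of the genes were called. A549 was called higher than the other 3 lines in 7 genes and lower in 2, against 22.4% and 21.3% of all genes. H460 was called higher in 8 genes and lower in 0, against 24.1% and 26.8%. H1975 was called higher in 5 genes and lower in 0, against 28.1% and 23.8%. As shares of the 54 genes these are 13% and 3.7% in A549, 14.8% and 0% in H460, and 9.26% and 0% in H1975. Of the other bright genes, 27.5% were called higher and 6.13% lower in A549. Their shares were 38.1% and 7.47% in H460, and 11.7% and 32.3% in H1975. The medians over the 54 genes were 0.15 in H460, 0.11 in A549 and -0.0066 in H1975, and those of the other bright genes were 0.17, 0.14 and -0.11 in the same order. With each array centred on the other bright genes, the median in H460 turned to -0.027 and that in H1975 to 0.11, with 24 genes called in H1975. With quantile normalization and with the same median on each array, the median in A549 turned to -0.026 and -0.037, and there were 35 calls in H460 with the same median. The calls in H460 numbered 34 without A549 and 1 without H1650, those in A549 3 without H1975, and those in H1975 8 without H1650. The 4 contrasts use the same arrays, so a line that is low raises the others.

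**Figure D3:**
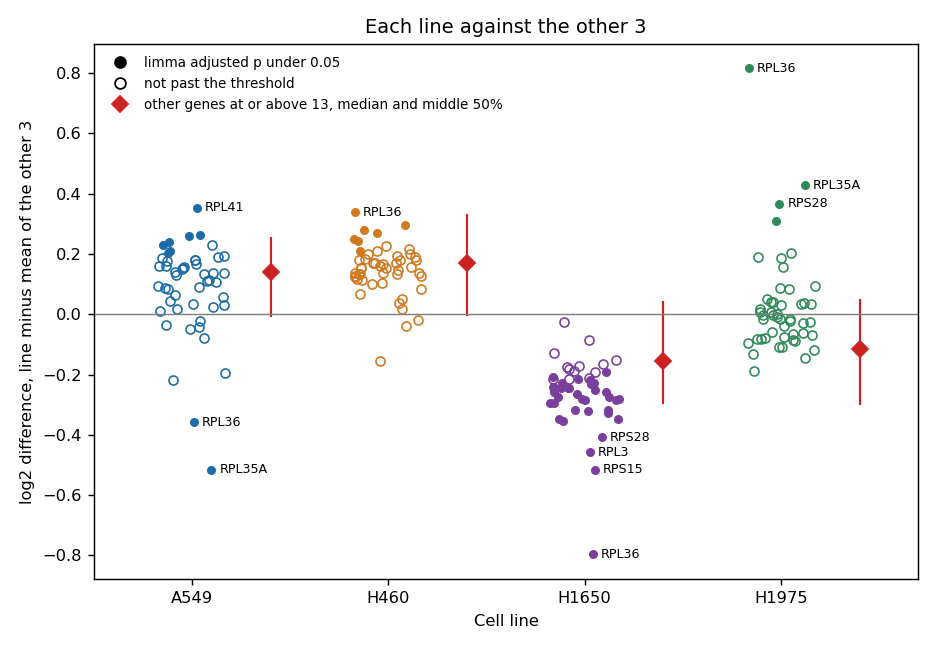
Log2 difference of each line from the mean of the other 3 for the 49 bright ribosomal protein genes, with filled points where limma's adjusted p was under 0.05 and the median and middle 50% of the other 375 bright genes in red. All 49 points of H1650 lie below 0, and RPL36 is the lowest point in H1650 and the highest in H1975.

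RPL36, a protein of the large subunit, differed most between the lines among the bright genes. Its log2 signals were 13.15, 13.80, 12.92 and 14.15 in SP of A549, H460, H1650 and H1975, and 13.40, 13.79, 12.98 and 14.16 in MP of the same lines. The arrays of no line overlapped those of another, in the order H1650, A549, H460 and H1975 from low to high. The difference from the other 3 lines was -0.80 in H1650 (SE 0.078, limma adjusted p = 0.00015) and 0.82 in H1975 (limma adjusted p = 0.00014). It was -0.36 in A549 (limma adjusted p = 0.0084) and 0.34 in H460 (limma adjusted p = 0.0086). The call in H1975 was kept under each alternative that could be run. The second brightest probe set of RPL36 has a mean of 5.95, below the filter, and was not tested alone. The call in A549 was lost without H1975 (-0.096) and without H460 (-0.28), that in H460 without H1650 (0.082), and both with no trend in the variance model. With the mean of all probe sets the differences were -0.068 in A549, -0.034 in H460 and -0.58 in H1650, none of them called.

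RPS15 and RPS28, both of the small subunit, had the same order at the ends, with H1650 lowest and H1975 highest. The log2 signals of RPS15 were 13.76, 13.97, 13.51 and 14.02 in SP and 13.99, 14.05, 13.46 and 14.19 in MP of A549, H460, H1650 and H1975. Its difference was -0.52 in H1650 (SE 0.076, limma adjusted p = 0.0011) and 0.31 in H1975 (limma adjusted p = 0.011), the second of which was not called without H1650 (0.15), with no trend or with the same median on each array. With the second brightest probe set the differences were -0.51 and 0.84, neither of them called. RPS28 had 13.52, 13.51, 13.24 and 13.75 in SP and 13.66, 13.55, 13.24 and 13.89 in MP, with a difference of -0.41 in H1650 (SE 0.069, limma adjusted p = 0.0021) and 0.37 in H1975 (limma adjusted p = 0.0034). In both genes the H1650 arrays were below all others, and the H1975 arrays were above all others in RPS28, while in RPS15 SP of H1975 lay between MP of A549 and MP of H460.

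RPL36, RPS15 and RPS28 lie on chromosome 19 at the positions printed above. The genes tested next to each of them, 40 in all with 20 on either side in RefSeq order, gave a local comparison. In H1975 the median difference of the neighbours was 0.70 for RPL36 (36 of 40 above 0), 0.60 for RPS15 (35 of 40) and 1.31 for RPS28 (38 of 40), on the same side as the genes themselves. In H1650 the neighbours' medians were -0.49, -0.55 and -0.26, again on the side of the genes. In H460 RPL36 (0.34) and RPS15 (0.19) were above 0 while their neighbours' medians were below it (-0.19 and -0.063). RPS28 and its neighbours were both below 0 in H460 (-0.019 and -0.36). In A549 RPL36 and its neighbours were both below 0 (-0.36 and -0.16). RPS15 (0.011) and RPS28 (0.059) were above 0 in A549, and their neighbours below it (-0.079 and -0.40). The other chromosome 19 members RPS16, RPS19, RPL18 and RPS9 were on the side of their neighbours in H1975 too, at -0.12, -0.15, -0.077 and 0.20 where the neighbours' medians were -1.01, -0.82, -0.16 and 0.43. In H1650 these 4 genes were below 0 (-0.13 to -0.35) while their neighbours' medians were 0.28 to 0.58. In H460 they were above 0 (0.038 to 0.15) and their neighbours' medians below it (-0.76 to -0.34). In A549 the genes (0.064 to 0.26) and their neighbours' medians (0.14 to 1.03) were both above 0. DNA copies were not measured, and the part of position in these differences was not tested.

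**Figure D4:**
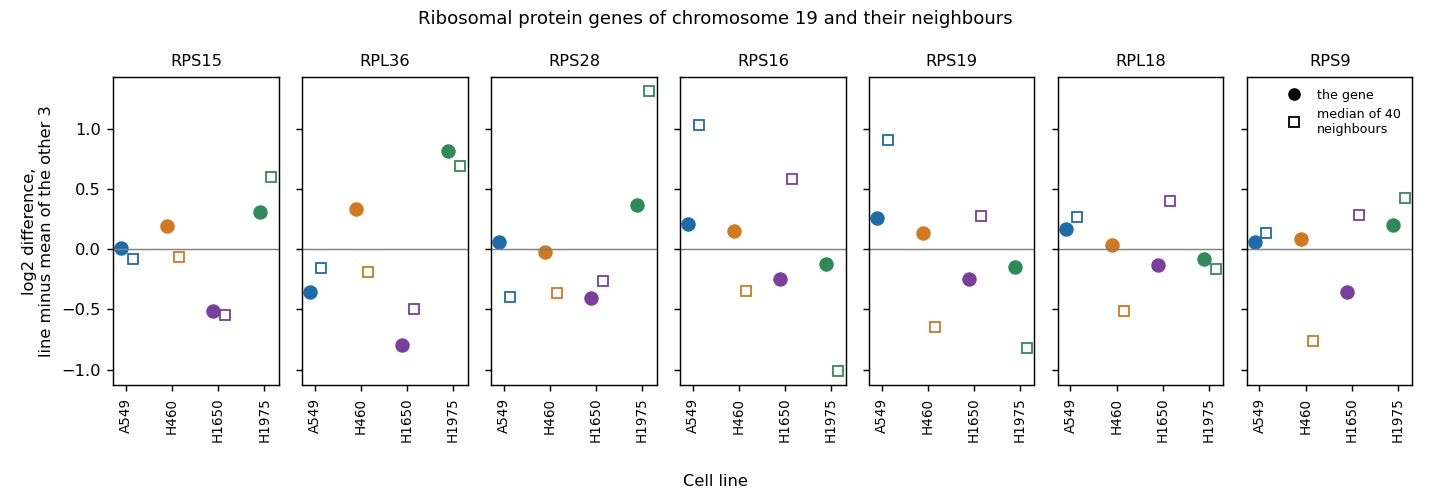
Log2 difference of each line from the mean of the other 3 for the 7 ribosomal protein genes of chromosome 19 (filled circles) and the median of the 40 tested genes nearest to each (open squares). In RPS15, RPL36 and RPS28 the circle and square lie on the same side of 0 in H1650 and H1975, and in the other 4 genes the circle of H1650 lies below 0 and the square above it.

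RPL35A, a large subunit protein whose gene is mutated in some families with Diamond-Blackfan anaemia, was the lowest of the bright genes in A549. Its log2 signals were 13.57, 14.15, 13.98 and 14.32 in SP and 13.75, 14.20, 13.99 and 14.42 in MP of A549, H460, H1650 and H1975. Both A549 arrays were below the other 6, and both H1975 arrays were above them. The difference was -0.52 in A549 (limma adjusted p = 0.00081) and 0.43 in H1975 (limma adjusted p = 0.0014), while H1650 had -0.084 (SE 0.066) and was not called. A second bright probe set of RPL35A gave -0.32 in A549 and 0.37 in H1975, and the brightest of those whose name does not end in _x_at or _s_at, a dim one with a mean of 8.98, gave 0.40 and -0.21. With the mean of all probe sets neither line was called (-0.096 and 0.31). For the 21 genes tested around it the A549 median was -0.45 and the H460 median -0.53, and those of H1650 and H1975 were 0.40 and 0.72.

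RPL3, which lies by the site of peptide bond formation, was lower in H1650 by a log2 difference of -0.46 (SE 0.072, limma adjusted p = 0.0015). Its signals were 13.73, 13.98, 13.49 and 13.88 in SP and 13.88, 13.98, 13.41 and 13.99 in MP, and the H1650 arrays were below the other 6. After RPL36, RPS15, RPL3 and RPS28, the lowest differences in H1650 among the bright genes were those of RPS9 (-0.35), RPL30 (-0.35, limma adjusted p = 0.0093) and RPL9 (-0.35, limma adjusted p = 0.0064). The calls of RPL30 and RPL9 were lost with no trend and with quantile normalization. The neighbours' medians in H1650 were above 0 for RPL3 (0.42, 32 of 40 above 0) and RPL30 (0.40, 30 of 40). For RPL9 the median was below 0 (-0.13, 15 of 40 above 0). The 13 bright genes that were not called in H1650 included RPL8, with -0.026, RPL11, with -0.15, and RPS25, with -0.22.

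The genes called higher in A549 were RPL23A, RPL41, RPL8, RPS15A, RPS16, RPS19 and RPS6. RPL41, the smallest of the ribosomal proteins, had log2 signals of 14.33, 14.11, 13.88 and 13.92 in SP and 14.38, 14.00, 13.95 and 14.14 in MP, so both A549 arrays were above the other 6 (0.35, limma adjusted p = 0.0086). RPS19, the gene most often mutated in Diamond-Blackfan anaemia, differed by 0.26 (limma adjusted p = 0.015). Both calls were lost with no trend and with the same median on each array, and that of RPS19 also with quantile normalization and without H1650 (0.20, limma adjusted p = 0.058). The calls of RPL23A, RPL8 and RPS15A were lost without H1650 (0.18, 0.22 and 0.19) and without H1975 (0.27, 0.22 and 0.20), and that of RPL8 also without H460 (0.17). In H460 the calls were RPL3, RPL9, RPL14, RPL27, RPL36, RPL36A, RPL38 and RPS7, with RPL14 at 0.30 (limma adjusted p = 0.035) and RPL27 at 0.28 (limma adjusted p = 0.019). Neither was called without H1650 (0.27 and 0.21, limma adjusted p = 0.056 and 0.078), with no trend, with quantile normalization or when centred on the other bright genes. The H460 calls of RPL3 and RPL9 were also lost without H1650 (0.11 and 0.17). Bright genes that met the rule for the start had a median of -0.24 in H1650 (30 genes, 20 called lower), and those that did not had -0.29 (13 genes, 12 called lower).

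Paralogues were compared with the ribosomal protein gene of their pair by their differences between arrays. RPL22L1, the paralogue of RPL22, had log2 signals of 13.16, 13.65, 10.83 and 12.47 in SP and 13.28, 13.67, 11.55 and 12.43 in MP of A549, H460, H1650 and H1975. Its H1650 arrays were thus far below the other 6, at -1.92 (SE 0.15, limma adjusted p = 5.0e-05), and H460 was at 1.38 (limma adjusted p = 0.00023). RPL22, which binds RNA and is lost in some tumours, had 13.79, 13.96, 13.75 and 13.81 in SP and 13.94, 13.92, 13.67 and 13.93 in MP. The range of line means was 2.47 for RPL22L1 and 0.23 for RPL22, and RPL22 was not called between lines (limma adjusted p = 0.19). Its other probe sets gave differences in H1975 of 0.14, 0.089, -0.078 and -0.59, the last from a probe set with a mean of 12.51. The SP over MP ratio of RPL22L1 was -0.72 in H1650 and between -0.12 and 0.035 in the other lines, and this difference between lines did not pass (limma adjusted p = 0.15).

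RPS27L, a target of p53, had log2 signals of 13.94, 13.96, 13.14 and 13.44 in SP and 14.20, 13.90, 13.06 and 13.61 in MP. The difference was -0.74 in H1650 (limma adjusted p = 0.00038), 0.55 in A549 (limma adjusted p = 0.0022) and 0.36 in H460 (limma adjusted p = 0.011). The call in H460 was lost without H1650 (0.13) and with the second brightest probe set (0.26). RPS27L had a range of line means of 0.97 and RPS27 one of 0.41, and outside H1650 the differences of RPS27 were 0.11 for A549, 0.22 for H460 and 0.0061 for H1975, none called. RPS27 was called in H1650 (-0.33, limma adjusted p = 0.010), but not with quantile normalization, with no trend or without H460 (-0.29, limma adjusted p = 0.052). The sign turned with the second brightest probe set, a dim one (1.47, limma adjusted p = 0.0018), and with the mean of all probe sets (0.57, limma adjusted p = 0.0033). RPL7L1, a nucleolar protein similar to RPL7, was higher in H1975 (0.68, limma adjusted p = 0.00034) and lower in A549 (-0.54, limma adjusted p = 0.0014) and H1650 (-0.46, limma adjusted p = 0.0023), with a range of 0.92 against 0.28 for RPL7. The H1650 call of RPL7L1 was lost without H1975 (-0.26, limma adjusted p = 0.054). RPL39L, which is used in the testis, had a range of 0.32 and RPL39 one of 0.24, and neither was called between lines (limma adjusted p = 0.35 and 0.14).

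RPL36AL was read by a bright probe set with a range of 0.40, and RPL36A by a dim one with a mean log2 signal of 6.2 and a range of 1.27. RPL26L1 was higher in H1975 (0.38, limma adjusted p = 0.034) and lower in A549 (-0.39, limma adjusted p = 0.035), but neither call held with no trend. The H1975 call was also lost with the same median on each array, without A549 (0.28) and without H1650 (0.31), and the A549 call without H1975 (-0.30) and without H460 (-0.32). RPL10L, a retrogene of RPL10 used in the testis, had dim log2 signals of 6.78, 7.69, 6.13 and 8.69 in SP and 7.01, 7.63, 6.40 and 7.96 in MP, with H1975 at 1.38 (limma adjusted p = 0.0034) and H1650 at -1.36 (limma adjusted p = 0.0038). RPL10 and RPL26 have no value, so these last pairs are incomplete. The differences between the genes of a pair were not themselves tested.

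**Figure D5:**
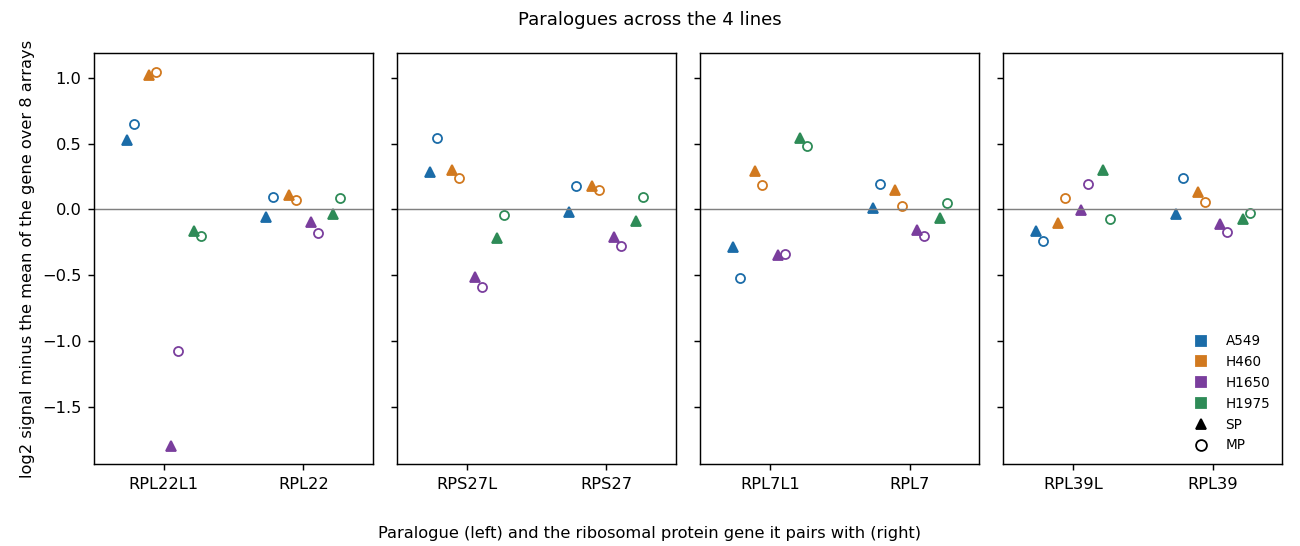
Log2 signal minus the mean of the gene over the 8 arrays for 4 paralogues (left in each panel) and the ribosomal protein gene each pairs with (right), with triangles for SP and open circles for MP and 1 colour per line. RPL22L1 spans more than 2 on the log2 scale, with H1650 lowest, while RPL22 stays within 0.3.

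Other probe sets of the same genes were read on the same arrays, so they are not an independent check of the values. Of 59 further probe sets with the symbol of a member, 19 of 15 genes were at or above 13. In these the ratio of SP over MP was below 0 in 19 of 19 in A549 (median -0.20) and in 17 of 19 in H1975 (median -0.14). In H1650 19 of 19 were lower than the mean of the other lines (median -0.23). Of the other bright genes, 92% had a ratio below 0 in A549 and 67.7% in H1975, and 70.4% were lower in H1650. The 40 dimmer probe sets, of 27 genes, had ratios of -1.77 to 3.0 and medians of 0.019, 0.15, -0.068 and -0.035 over the lines in that order. In H1650 25 of the 40 were lower than the mean of the other lines (median -0.18), and among those on the other side were dim probe sets of RPS27 (1.47) and RPS21 (1.09), whose bright probe sets were at -0.33 and -0.22. Of the 55 genes, 41 were read by a probe set with a name ending in _x_at or _s_at, a type that may bind several transcripts, and ribosomal protein genes have many processed pseudogenes. RPS28 had 2 dimmer probe sets that gave -1.69 and -1.59 in H1650 and 1.4 and 1.21 in H1975, on the same side as the bright one.

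The other genes of the translation and ribosome assembly pathways were read from lists. None of their genes was called between SP and MP. The shares called between lines are to be read beside the 76.2% of all genes, and those in H1650 beside the 25.8% called lower and 25.1% called higher. Of the other bright genes, 73.1% were called between lines, and in H1650 36.8% lower and 9.6% higher. The median log2 signal was 13.74 in the list with a TOP start and 12.57 in that of the initiation factors. The list of genes taken to have a TOP start held translation factors and some other genes, and their start was not checked here. Of its 14 tested genes, 11 were called between lines (78.6%) and 9 lower in H1650 (64.3%, with 1 higher), with a median of -0.28. These included EIF4B, which stimulates the helicase of initiation (-0.79, limma adjusted p = 0.00019), EIF3F, a subunit of an initiation factor that binds the small subunit (-0.73, limma adjusted p = 0.00022) and the elongation factor EEF2 (-0.54, limma adjusted p = 0.00066). The SP over MP medians of the 14 genes were -0.17 (A549), 0.030 (H460), 0.055 (H1650) and -0.10 (H1975). Those of the other bright genes were -0.18, 0.018, 0.054 and -0.061 in the same order. Of 25 initiation factors tested, 17 were called between lines (68%), 11 lower (44%) and 3 higher in H1650. FAU, which encodes a small subunit protein fused to a ubiquitin-like protein, was not called in H1650 (-0.13, limma adjusted p = 0.16).

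Mitochondrial ribosomal proteins were called between lines in 67 of 75 genes (89.3%, against 76.2% of all genes). In H1650 37 of them were lower (49.3%, against 25.8%) and 8 higher (median -0.26), and in H460 37 were higher (49.3%, against 24.1%) and 7 lower (median 0.24). MRPL54, for example, was at -1.46 in H1650 (limma adjusted p = 4.4e-05) and at 1.60 in H1975 (limma adjusted p = 2.9e-05). Of 41 genes of ribosome assembly, 30 were called between lines (73.2%), 17 lower (41.5%) and 5 higher in H1650. The helicase DDX10 was at -1.67 in H1650 (limma adjusted p = 5.4e-05). Their SP over MP medians were 0.20 (A549), 0.10 (H460), -0.068 (H1650) and 0.22 (H1975). The 14 genes of RNA polymerase I had 10 calls between lines (71.4%) and the 16 regulators had 11 (68.8%), both below the share of all genes. Among the regulators MYCL, a relative of MYC, stood at 2.65 in H1650 (limma adjusted p = 5.8e-05), and MAF1, a repressor of RNA polymerase III, at 1.03 in A549 (limma adjusted p = 0.00046). For single genes the alternatives were run on the members named by rule and the paralogues, and not on the genes of these lists or on the other members, such as RPS6, RPS9 and RPS16.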

How the data were processed

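RNA of sorted SP and MP cells of 4 lung cancer lines was hybridised to Affymetrix U133 Plus 2.0 arrays, 1 array per population and line. The authors deposited log2 MAS5 signals (GCOS 1.4 and MAS5 per the submitters' processing notes), with a trimmed mean of the linear signal of about 500.1 on each array and no centring by gene. The sources used here give neither scan dates nor detection calls. No depth applies, and the number of arrays limits the precision.

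Gene names came from the platform's annotation, in which 41097 of 54675 probe sets have 1 symbol, 1801 several and 11777 none. Names were looked up in the RefSeq gene table, which changed 0. The brightest probe set stood for a gene. Fits used limma 3.58.1 in R 4.3.3 (lmFit, eBayes with trend) on 12312 genes with a mean log2 signal of at least 6.0021, with terms for population and cell line. Line contrasts came from the same fit. The cell line pairs the arrays by design, and as a check, the SP deviations from the SP mean correlated within each line with the MP deviations from the MP mean (r of 0.84 to 0.92 over genes). The fits were tested on simulated data. Neighbours were the tested genes next to a gene in RefSeq order (GRCh38.p14), up to 20 on each side.

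The ribosomal protein genes and all lists were chosen with earlier results of these data known. Named members were, by rule, the 6 with the highest and the 6 with the lowest mean ratio, the 12 with the widest range over lines, the 3 furthest above and below in each line and the paralogue pairs. From each list at most 3 genes with the smallest p between lines were taken, with 1 for SP against MP. RPS25, RPL14, RPS9, the nearby chromosome 19 genes and the genes named in counts were chosen after their values were seen. Alternatives were a floor of 32, a pseudocount of 16, quantile normalization, the same median on each array, other probe set choices, other filters, no trend, no block, leaving out each line in turn and a threshold of 0.1. Centring on the other bright genes was added after seeing the data.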

Additional observations from a re-analysis of the deposited data

Results flagged for a closer look

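In 3 of 60 groups of 4 arrays, 1 array stood apart from the other 3 by a gap that was large for the range of the group (Dixon's rule). Chance gives about 1 in 20 such groups, so 3 of 60 is the number that chance gives. RPL22 in MP was at 13.67 in H1650 and at 13.92 to 13.94 in the other lines. RPL27A in MP was at 7.35 in H1650 and at 7.90 to 7.99 in the other lines. RPLP2 in SP was at 6.77 in A549 and at 7.07 to 7.11 in the other lines. RPL27A and RPLP2 were read by dim probe sets.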

How the results depend on the processing

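Between SP and MP, and for the effect of 1 line against the others, the count of ribosomal protein genes called was 0 under every alternative run, also without the block that pairs the arrays by cell line (0 called). The count between lines was 34, and became 24 with the mean of all probe sets, 22 with no filter, 6 with no trend, 15 with quantile normalization, 20 with the same median on each array, 15 with the second brightest probe set, 13 without _x_at and _s_at probe sets, and 9 to 42 without 1 line. In H1650 the 37 calls became 6 with no trend, 8 with quantile normalization, 14 with the same median, 14 with the second brightest probe set, 10 without _x_at and _s_at probe sets, and 11 to 43 without 1 line. The last 2 of these probe set choices leave 29 and 27 genes to test. In A549 the 9 calls became 15 at an adjusted p under 0.1, 15 when centred on the other bright genes, 5 with no filter, 1 with no trend, 2 with the same median, 4 without _x_at and _s_at probe sets, and 3 to 10 without 1 line; in H460 the 8 became 20 at an adjusted p under 0.1, 1 with no trend, 35 with the same median, and 1 to 34 without 1 line. In H1975 the 5 became 10 at an adjusted p under 0.1, 24 when centred, 10 with the mean of all probe sets, 11 with quantile normalization, 11 with the second brightest probe set, and 6 to 8 without 1 line.

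The median difference of a line from the other 3 moved to -0.026 in A549, 0.0063 in H460 and -0.019 in H1650 with quantile normalization, to -0.037 in A549 and 0.38 in H460 with the same median, and to -0.027 in H460, -0.12 in H1650 and 0.11 in H1975 when centred. The median ratio of SP over MP moved in A549 to 0.012 when centred, -0.013 with quantile normalization and -0.34 with the same median, and in H1975 to 0.050 with the same median. Among 120 named line differences, 46 were called. Of these, 13 kept the call under each alternative run, and 33 lost it or turned under at least 1. The only bright members among those kept were RPL36 in H1975, RPL3 in H1650 and RPS28 in H1650 and H1975. The rest were the dim members RPL10L (H1650 and H1975) and RPL36A (H460), and the paralogues RPL22L1, RPL7L1 and RPS27L, which are not members. Probe set choices could not be run for every gene. RPL10L and RPL36A have a single probe set each, and their means are below the alternative filter of a log2 signal of 10. RPL3 has a single probe set, with a name ending in _x_at, so no other was tried for it. For RPL36 the second brightest probe set (mean 5.95) was below the filter, and both names end in _x_at or _s_at. The calls fell short of the threshold 122 times, most often with no trend (27), with quantile normalization (16) and without H1650 (14). In 10 cases the value of a called difference reversed. They were RPL35A in A549 (0.40) and in H1975 (-0.21) without _x_at and _s_at probe sets, RPL36 in H460 (-0.034) and RPL7 in H1650 (0.024) with the mean of all probe sets, RPL41 (0.033), RPL7 (0.0019) and RPS19 (0.0018) in H1650 with quantile normalization, and RPS27 in H1650 with the mean of all probe sets (0.57), the second brightest (1.47) and without _x_at and _s_at probe sets (1.47). The cause was not tested. With 1 array per population and line, small ratios of single genes have no replicate of their own.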
